A study of Mus musculus with 4 samples.

Results

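The 10 genes described here belong to antigen presentation, as chain genes of major histocompatibility complex (MHC) class II molecules or as genes that supply or load their peptides and those of class I molecules, and all of them lie in the H2 region of mouse chromosome 17. They were H2-Eb1, H2-Eb2, H2-Ea, H2-Ab1, H2-Aa, H2-DMa, Tap1, Tap2, Psmb8 and Psmb9, chosen by name, and they made up 10 of the 39730 RefSeq genes with an annotated transcript. A region of histone H3 trimethylated at lysine 4 (H3K4me3) was counted for a gene when it overlapped the gene body or lay within 20 kb of a transcription start site (TSS). A region of histone H3 acetylated at lysine 27 (H3K27ac) was counted when the deposited annotation named the gene. By this rule, 5 of the 31315 regions in the 4 deposited lists belonged to the 10 genes, namely 4 H3K4me3 regions and 1 H3K27ac region. All 5 were enriched in cells of the NOD strain, and neither list enriched in the C57BL/6 strain held any. Most listed regions were NOD-enriched, with 12077 for H3K4me3 and 6126 for H3K27ac, against 7587 and 5525 enriched in C57BL/6. The 5 regions lay in neighbouring genes and are not independent cases.

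The regions came from chromatin immunoprecipitation and sequencing (ChIP-Seq) of embryonic stem (ES) cells isolated from embryos of C57BL/6 (B6) mice or of non-obese diabetic (NOD) mice, a strain that develops autoimmune diabetes. Both kinds of cells were kept with 2i, a pair of kinase inhibitors that holds ES cells in a ground state of pluripotency. The study asked whether active chromatin marks differ between the strains at genes that act in immunity. There were 4 libraries, with 1 for each strain and mark, so no difference between the strains has a replicate check and no p-value is given. The labels do not say from how many cell lines or embryos a library was made. Intervals are exact 95% Poisson intervals and cover counting error only. Each list had been called against the other strain, whose library served as background, so a gene without a region may still carry the mark to a similar degree in both strains. For H3K4me3 the totals were 14791364 tags (B6) and 22750449 tags (NOD), while no depth is known for H3K27ac. Normalised tags are tags per 10000000 tags of the library.

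MHC class II molecules are pairs of an alpha and a beta chain that show peptides from outside the cell to helper T cells. In the mouse, the I-A molecule is built from H2-Aa and H2-Ab1, the I-E molecule from H2-Ea and H2-Eb1, and H2-DMa belongs to the H2-DM complex that exchanges peptides in the class II groove. Tap1 and Tap2 form the pump that moves peptides into the endoplasmic reticulum for class I molecules, and Psmb8 and Psmb9 are subunits of the immunoproteasome that cuts those peptides. Class II genes are normally read in B cells, dendritic cells and macrophages and are silent in most other cells, including ES cells. Their promoters hold a conserved X box and Y box, bound by RFX and NF-Y factors that recruit the coactivator CIITA. I-E is absent from the surface of cells of both strains because the alpha chain gene H2-Ea is defective, and H2-Ea is annotated as a transcribed pseudogene in RefSeq.

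The upstream stretches of the 3 class II chain genes that have both a counted H3K4me3 region and a promoter entry are shown because the X and Y boxes stand in them. They are the 250 bases before the TSS on the coding strand, from RefSeq on GRCm38, the assembly also called mm10, whose chromosomes are those of the C57BL/6J strain. Capitals mark matches to the Y box core CCAAT and the X box core GNAACNG, each on either strand. The H2-Eb1 stretch is chr17:34305617-34305866 on the + strand, the H2-Eb2 stretch is chr17:34325425-34325674 on the + strand, and the H2-Aa stretch is chr17:34287824-34288073 on the - strand.
H2-Eb1: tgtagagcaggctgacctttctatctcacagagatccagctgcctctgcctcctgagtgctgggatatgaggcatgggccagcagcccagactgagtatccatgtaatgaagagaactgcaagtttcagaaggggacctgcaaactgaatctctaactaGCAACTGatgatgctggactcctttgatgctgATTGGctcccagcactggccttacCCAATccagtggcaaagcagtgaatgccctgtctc
H2-Eb2: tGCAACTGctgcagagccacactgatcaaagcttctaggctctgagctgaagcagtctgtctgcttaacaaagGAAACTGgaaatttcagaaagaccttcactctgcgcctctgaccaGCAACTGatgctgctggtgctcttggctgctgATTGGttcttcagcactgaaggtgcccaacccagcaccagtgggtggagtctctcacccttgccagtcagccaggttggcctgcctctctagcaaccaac
H2-Aa: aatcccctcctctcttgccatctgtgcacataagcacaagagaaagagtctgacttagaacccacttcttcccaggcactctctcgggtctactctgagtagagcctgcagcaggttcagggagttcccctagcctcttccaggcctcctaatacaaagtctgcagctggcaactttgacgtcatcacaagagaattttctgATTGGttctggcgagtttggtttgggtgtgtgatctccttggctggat
In H2-Eb1, an X box core started 91 bases before the TSS and a reversed Y box core 59 bases before it, and a further Y box core started 35 bases before the TSS. In H2-Eb2, X box cores started 249, 177 and 132 bases before the TSS and a reversed Y box core 100 bases before it. H2-Aa held a reversed Y box core 48 bases before the TSS and no match to the X box core letters in this window. The same 7 letters, GCAACTG, stood 32 bases ahead of ATTGG, start to start, in both H2-Eb1 and H2-Eb2. An X box core and a reversed Y box core at this spacing occurred in 16 of 32851 RefSeq promoter windows of 300 bases (0.0487%), a spacing chosen after the 2 sequences were seen. Taken singly the cores are common, since 37.4% of the windows held CCAAT and 42.3% held GNAACNG.

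Promoter windows were found for 7 of the 10 genes, and H2-Ab1, H2-Ea and Tap2 had no entry. The core of the interferon response element, GAAANNGAA, which 8.56% of all windows held, was matched in none of the 7 genes. Tap1 held a Y box core 222 bases before its TSS, Psmb9 a reversed one 8 bases before its TSS, and Psmb8 X box cores 244 and 100 bases before its TSS. H2-DMa held a reversed Y box core 198 bases before its TSS at 34125518. The windows also differed in CpG content. The 300 bases around the H2-Eb1 TSS held 0 CpGs, as did 5.43% of all windows, while H2-Eb2 held 1 and H2-Aa 3. In contrast, the windows of Psmb8, Tap1 and Psmb9 held 11, 15 and 17 CpGs, and the 2 windows of H2-DMa held 29 and 0. The median ratio of observed to expected CpGs over all windows was 0.384, against 0.0454 in H2-Eb2, 0.158 in H2-Aa and 0.549 in Tap1.

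The 10 genes span 225 kb, from H2-DMa at 34119693 to H2-Ea at 34344645. NOD-enriched H3K4me3 regions were counted for 4 of them, H2-Eb1, H2-Eb2, H2-Ea and H2-Aa, where 29.3% of all RefSeq genes had one by the same rule. B6-enriched H3K4me3 regions were counted for 0 of the 10, with 20.3% of all genes having one. H3K27ac regions of the NOD list named 1 of the 10, H2-Eb1, with 11.6% of all genes named, and those of the B6 list named 0, with 10.7% of all genes named. The counts of 4 and 1 in the NOD lists are near the background shares, so the number of genes with a region does not set this group apart. The 5 regions themselves lay within H2-Eb1, H2-Eb2 and H2-Ea. H2-Aa was counted through the region at the H2-Eb1 TSS, 17.8 kb from its own TSS, and only 3 genes had a region in the gene body. The I-A beta chain gene H2-Ab1 and the genes H2-DMa, Tap1, Tap2, Psmb8 and Psmb9 had no region in any list.

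**Figure D1:**
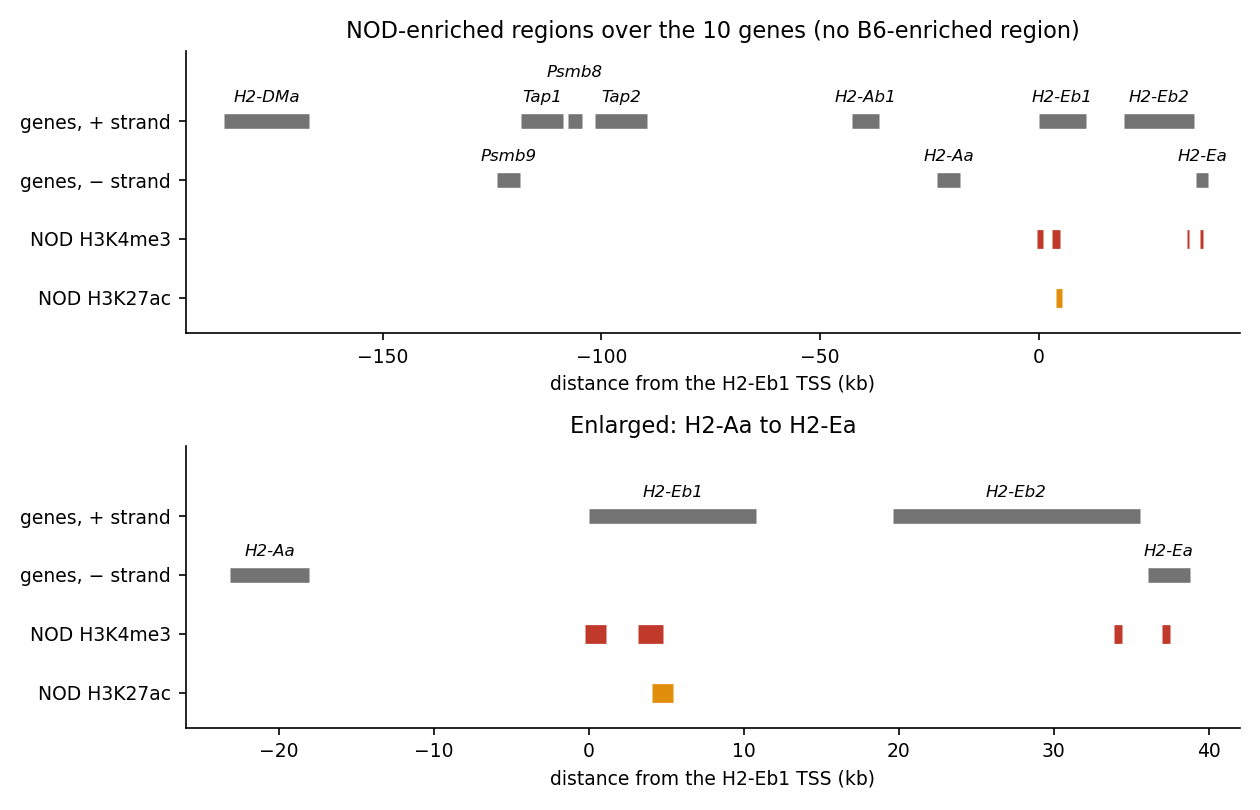
Map of the 10 genes and the NOD-enriched regions against distance from the H2-Eb1 TSS in kb, with all 10 genes above and the stretch from H2-Aa to H2-Ea enlarged below. Grey bars are gene bodies by strand, red bars H3K4me3 regions and the orange bar the H3K27ac region. The 5 regions fall in H2-Eb1, H2-Eb2 and H2-Ea, and none lies over the Tap, Psmb and H2-DMa genes.

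H2-Eb1, the gene of the I-E beta chain (34305867 to 34316674, + strand), carried most of the signal. Its 2 H3K4me3 regions held 463 of the 512 NOD tags found at the 10 genes (90.4%) and 42 of the 46 B6 tags. Scaled to library size, the 2 regions together had 7.17 times as many tags in NOD as in B6 (5.22 to 10.1). All 4 regions together gave a fold of 7.24 (5.35 to 10.01). As the authors kept only regions with at least a 4-fold excess, these folds describe how far above that threshold the regions lay.

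The first region of H2-Eb1 (34305610 to 34306963) covered the TSS and exon 1, from 257 bases before the TSS to 1096 bases after it, and so holds the whole H2-Eb1 stretch printed above. It had 127 tags in NOD and 6 in B6, or 55.8 and 4.06 normalised tags. The fold was 13.8 (6.15 to 38.2), the highest of the 3 regions with tags in both strains. The region ranked 675 of 12077 in the NOD list by tags, 1273 by fold and 476 by width. For ranks by fold and for the list's median fold, regions without B6 tags were given a floor of 3 B6 tags, while smaller counts above zero were kept. Regions empty in B6 could thus rank lower than regions with very few B6 tags. The 6 B6 tags (2.20 to 13.1) were no more than the 10.01 tags that a stretch of this width would hold at the mean density of the B6 library, whereas the 127 NOD tags were 8.25 times the NOD mean. The mean density is the library total spread over the genome size of 2000000000 bases given in the header. In GENCODE, the antisense gene Gm20513 also starts in this region, at 34305720 on the opposite strand, and ChIP-Seq does not tell the 2 genes apart.

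The second region of H2-Eb1 (34309027 to 34310673) began 3.16 kb after the TSS and held more than the first. It had 336 tags in NOD and 36 in B6, or 148 and 24.3 normalised tags, a fold of 6.07 (4.30 to 8.81). Per kb of width this was 89.7 normalised tags in NOD, against 41.3 at the TSS, and 14.8 in B6, against 2.998 at the TSS. By tags it ranked 140 of 12077, within the top 1.16% of the NOD list, but its fold was the same as the list's median of 6.07 and ranked 5761. B6 was not empty here, since its 36 tags (25.2 to 49.8) were 2.96 times the mean density of the B6 library. The strain with the lower level thus had a count above its mean in the second region and not at the TSS.

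The centre of the second region lay in coding exon 2 of H2-Eb1 (34309591 to 34309860, 270 bases), which encodes part of the peptide-binding domain, and the region is called the exon 2 region after its centre. How its tags fall within its 1646 bases is not given. The 300 bases at the centre, chr17:34309700-34309999 on the + strand of GRCm38, are shown because they are the middle of the region with the most H3K4me3 tags at the 10 genes, and capitals mark the bases of exon 2.
H2-Eb1 exon 2: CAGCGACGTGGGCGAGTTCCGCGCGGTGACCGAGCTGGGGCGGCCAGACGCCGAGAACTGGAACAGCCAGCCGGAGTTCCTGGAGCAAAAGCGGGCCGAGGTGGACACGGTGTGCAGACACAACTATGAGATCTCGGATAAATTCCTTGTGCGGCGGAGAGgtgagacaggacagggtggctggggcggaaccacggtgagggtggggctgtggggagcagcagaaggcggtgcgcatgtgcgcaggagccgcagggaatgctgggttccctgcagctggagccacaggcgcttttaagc
These 300 bases held 24 CpGs and had a GC content of 65.00%, while the window around the TSS held 0 CpGs and had a GC content of 48.00%. Over the whole second region the observed to expected CpG ratio was 0.545, against 0.127 in the first region and a median of 0.234 in the NOD list. GENCODE lists 2 retained-intron transcripts of H2-Eb1, of which one starts at 34309575, inside the second region and 16 bases before exon 2, and the other at 34305934, inside the first region.

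**Figure D2:**
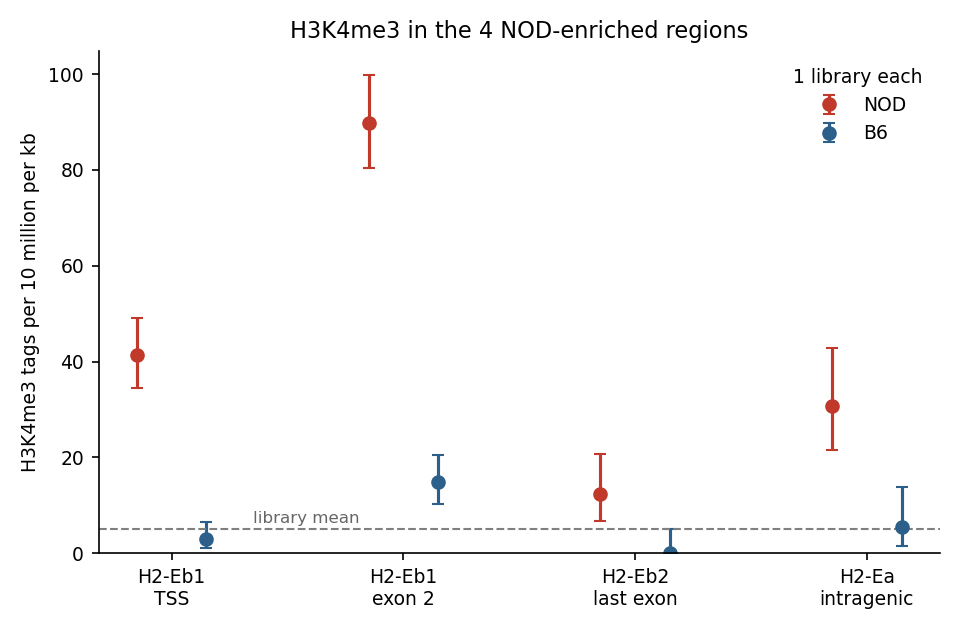
Normalised H3K4me3 tags per kb in the 4 NOD-enriched regions, with NOD in red and B6 in blue, 1 library each and bars for exact 95% Poisson intervals. The dashed line is the mean density of a library. NOD reaches 89.7 in the H2-Eb1 exon 2 region and 41.3 at the TSS, and the B6 interval lies above the line in the exon 2 region alone.

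The other 2 H3K4me3 regions had the smallest width the caller gives, 500 bases, and far fewer tags. One lay in H2-Ea, the alpha chain pseudogene (34341952 to 34344645, - strand), from 34342874 to 34343374, with its centre in an intron and its nearer edge 1.27 kb from the TSS. It had 35 tags in NOD and 4 in B6, or 15.4 and 2.70 normalised tags, a fold of 5.69 (2.03 to 22.03), and ranked 4400 of 12077 by tags. The B6 count was close to the 3.70 tags at the mean density of the library. The last region, from 34339772 to 34340272, lay in the last exon of H2-Eb2, which is exon 5 of this second beta chain gene (34325503 to 34341410, + strand), and 1.68 kb from the H2-Ea body. It had 14 tags in NOD and 0 in B6, which is at least 3.03-fold higher in NOD against a floor of 3 tags. This bound leaves out the counting error of the 14 tags, and the exact lower limit of the fold was 2.16. With a rank of 11884 of 12077 it was among the faintest regions of the list, and its 14 tags (7.65 to 23.5) were 2.46 times the mean density of the NOD library. At 0 of 14791364 B6 tags, a B6 level below that of 3 tags was not detectable at this depth. No region of any list covered the H2-Eb2 TSS or the X and Y box cores shown for it.

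**Figure D3:**
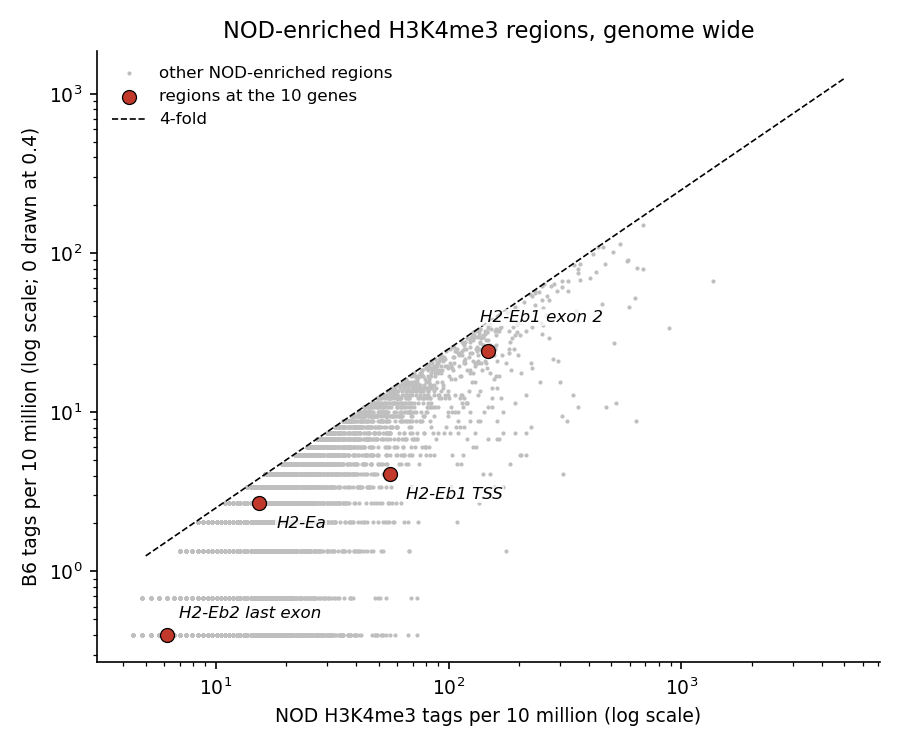
Normalised NOD tags against normalised B6 tags, both on log scales, for the 12077 NOD-enriched H3K4me3 regions in grey, with the 4 regions at the 10 genes in red and B6 counts of 0 drawn at 0.4. The dashed line is the 4-fold limit of the list. The H2-Eb1 exon 2 region sits among the highest counts at 148 and 24.3, the H2-Eb1 TSS further from the line at 55.8 and 4.06, and the H2-Eb2 region at 6.15 near the low end.

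The deposited H3K27ac score is taken here as the signal of the own strain minus that of the other, and the slope value as that of a super enhancer pipeline, a reading inferred from the column headers and the study's methods. The single H3K27ac region (34309953 to 34311300) lay in intron 2 of H2-Eb1. It began 93 bases after the end of exon 2, and its centre was 4.76 kb downstream of the TSS. Its score was 202.3, against a median of 12.9 for NOD-enriched H3K27ac regions, and it ranked 161 of 6126 (top 2.63%). Its slope value was 2.444, and a value of 1 or more, which on this reading marks a super enhancer, was found for 518 of the 6126 regions (8.46%). At a width of 1347 bases the region ranked 969, and by score per base it ranked 165, so its place was not set by its width. No count of tags is given for H3K27ac, and no interval can be made for the score. The region overlapped the second H3K4me3 region by 720 bases, from 34309953 to 34310673, which is 53.5% of the H3K27ac region and 43.7% of the H3K4me3 region. The first H3K4me3 region ended 2.99 kb before it. By the counting rules, which differ between the marks, H2-Eb1 alone of the 10 genes had both marks in the NOD lists. With H3K27ac counted by position within 20 kb, H2-Eb2 had both as well. The share of all genes with both marks was not counted.

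The deposited annotation placed the centre of the H3K27ac region in a copy of LTRIS2, a long terminal repeat (LTR) of the ERV1 class of endogenous retroviruses. In the genome 65.5% of its bases were masked as repeats, against a median of 22.2% for NOD-enriched H3K27ac regions. The 300 bases at the centre, chr17:34310476-34310775 on the + strand of GRCm38, are shown because they are the middle of the only H3K27ac region, and all 300 are masked as repeat. The second H3K4me3 region ends within this stretch, at 34310673. No base is in capitals.
H2-Eb1 intron 2: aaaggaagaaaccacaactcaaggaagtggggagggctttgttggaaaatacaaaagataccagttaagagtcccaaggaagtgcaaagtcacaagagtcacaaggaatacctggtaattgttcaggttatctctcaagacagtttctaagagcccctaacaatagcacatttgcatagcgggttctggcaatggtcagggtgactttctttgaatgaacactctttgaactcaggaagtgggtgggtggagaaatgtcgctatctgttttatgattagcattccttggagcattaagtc
This stretch held 2 CpGs and had a GC content of 42.7%, in contrast to the 24 CpGs and 65.00% at the centre of the second H3K4me3 region less than 1 kb away.

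Centres in LTRIS2 were more frequent in the NOD list than in the B6 list. They were found for 85 of 6126 NOD-enriched regions (1.39%) and for 4 of 5525 B6-enriched regions (0.0724%), and the median score was 44.8 for the 85 and 14.9 for the 4. All ERV1 repeats together were at the centre of 3.48% of NOD-enriched and 1.72% of B6-enriched regions. The H2-Eb1 region had the second highest score of the 85, after a region nearest to D14Ertd670e on chromosome 14 (score 383.1) and before one nearest to Mup20 on chromosome 4 (score 171.4). Most of the 85 were intergenic (72), and 13 were in introns, as at H2-Eb1. An overlap with a NOD-enriched H3K4me3 region, as at H2-Eb1, was found for 7 of the 85 (8.24%), and for 604 of all 6126 (9.86%). Reads of both strains were placed on the C57BL/6J sequence, and the H2 haplotype and repeat copies of NOD differ from it. The part of this in the result was not tested.

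**Figure D4:**
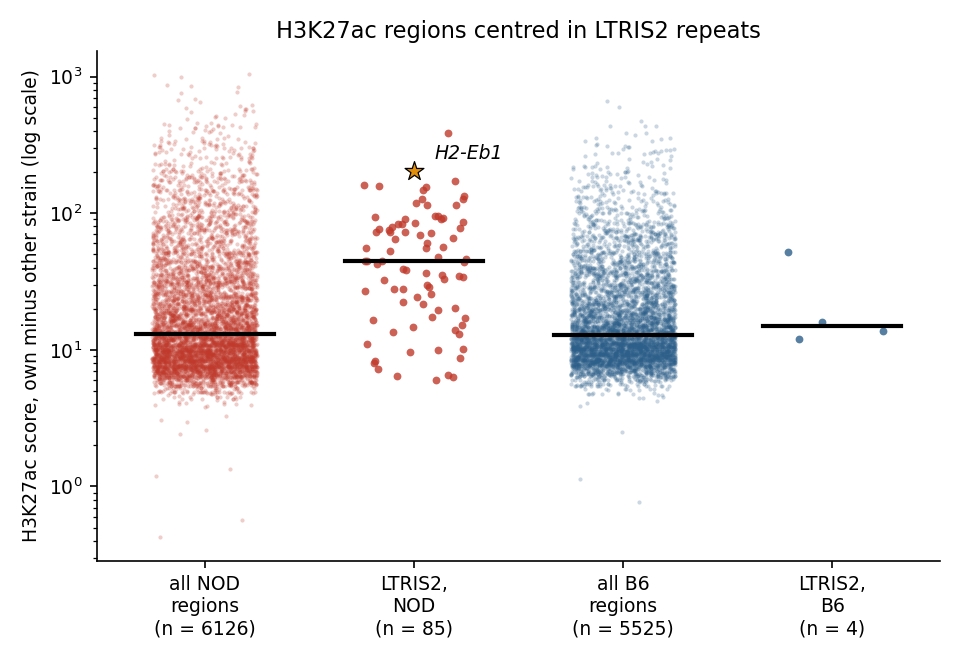
H3K27ac scores (own minus other strain, log scale) of all NOD-enriched and all B6-enriched regions and of those centred in LTRIS2 repeats, with 1 point per region, black bars for medians and the star for the H2-Eb1 region. Scores of 0 or below are not drawn. The 85 LTRIS2 regions of NOD have a median of 44.8 against 12.9 for the list, and H2-Eb1 at 202.3 is second among them.

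The genes of the class I pathway had no region in any list by the counting rules. The Tap1 (34187556 to 34197225, + strand) and Psmb9 (34182030 to 34187330, - strand) genes stand head to head, followed by Psmb8 (34198195 to 34201454, + strand) and Tap2 (34204479 to 34216321, + strand). The nearest NOD-enriched H3K4me3 region was 89.3 kb from Tap2, 104 kb from Psmb8, 108 kb from Tap1 and 118 kb from Psmb9, and in each case it was the region at the H2-Eb1 TSS. Over all RefSeq genes the median distance was 51.6 kb, and 62.9 to 69.6% of genes had such a region at least as close as these 4. The NOD-enriched H3K27ac region was 93.6 kb from Tap2 to 123 kb from Psmb9, around the median of 101 kb for all genes. Of the class II genes without a region, H2-Ab1 (34263227 to 34269418, + strand) was 36.2 kb away, and H2-DMa (34119693 to 34139101, + strand) was 89.4 kb from a region in Slc39a7 on its other side. H2-Aa (34282744 to 34287823, - strand) was 22.1 kb from the H3K27ac region.

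B6-enriched regions were farther away. The nearest B6-enriched H3K4me3 region was 138 kb from H2-DMa and 281 kb from H2-Ab1, the lowest and highest of the 10 genes, with a median of 221 kb against 87.3 kb for all genes. For H3K27ac the B6-enriched regions were 190 to 295 kb away, with a median of 255 kb against 113 kb for all genes. As the 10 genes are neighbours, these distances are not independent and describe 1 stretch without B6-enriched regions. On its upper side this stretch ended at Notch4, where a B6-enriched H3K4me3 region (34564113 to 34564613) had 24 tags in B6 and 7 in NOD, a fold of 5.27 for B6 over NOD (2.20 to 14.5). On its lower side it ended at AA388235 (33981306 to 33981938), with 85 tags in B6 and 0 in NOD. Between H2-K1 and H2-D1, the other 101 genes had a NOD-enriched H3K4me3 region in 20.8% and a B6-enriched one in 32.7% of cases, so B6-enriched regions were present elsewhere in the H2 region.

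**Figure D5:**
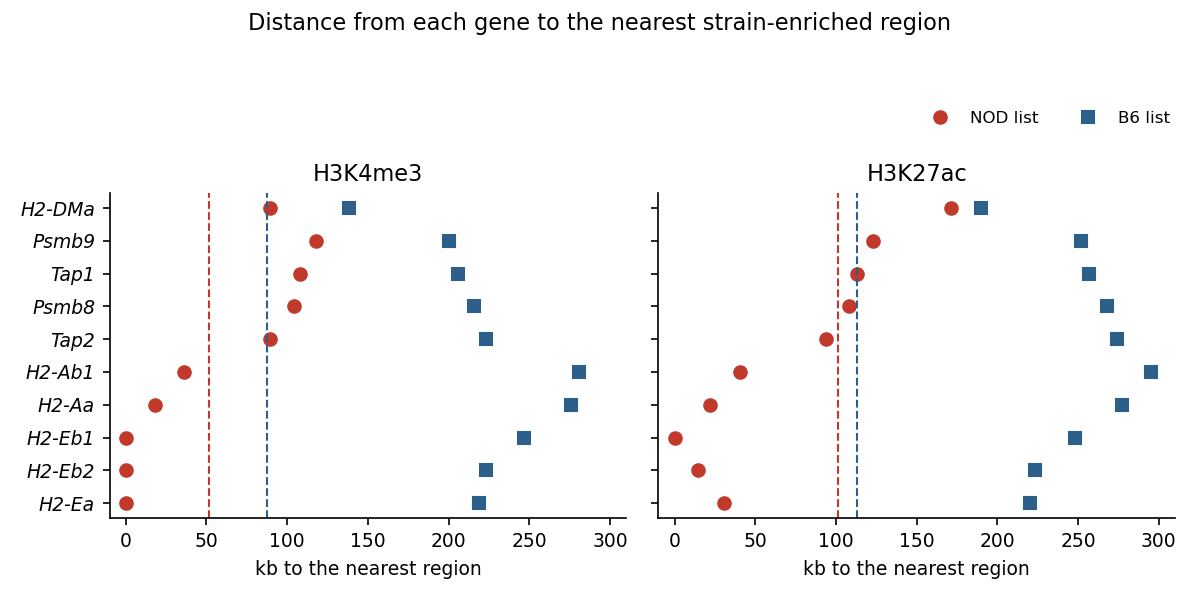
Distance in kb from each of the 10 genes, in chromosome order, to the nearest region of the NOD list (red circles) and the B6 list (blue squares) for H3K4me3 (left) and H3K27ac (right), with dashed lines at the median of all RefSeq genes for the list of that colour. The B6 squares lie between 138 and 295 kb, all beyond their medians, and NOD H3K4me3 circles are at 0 for H2-Eb1, H2-Eb2 and H2-Ea.

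Genes that act with the 10 showed regions of both strains and no common direction. Of 8 partners of class II molecules, such as the invariant chain Cd74 and the proteases Ctss and Lgmn, 1 had a NOD-enriched and 2 a B6-enriched H3K4me3 region, against 29.3% and 20.3% of all genes. At Lgmn, the gene of legumain, a B6-enriched region had 69 tags in B6 and 3 in NOD, a fold of 35.4 for B6 (11.6 to 176). It lay in the gene body, 25.8 kb from the nearest TSS. Of 8 regulators of class II transcription, 3 had a NOD-enriched and 3 a B6-enriched H3K4me3 region. Ciita, the coactivator of class II genes, had a B6-enriched H3K4me3 region 11.2 kb from a TSS, with 17 tags in B6 and 3 in NOD (8.72-fold higher in B6, 2.52 to 46.4). The NOD list of H3K27ac held a small region for Ciita, with a score of 6.65 and rank 5595 of 6126. Neither region covered a Ciita TSS.

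Of 10 genes of class I peptide supply, 6 had a NOD-enriched and 6 a B6-enriched H3K4me3 region, where 29.3% and 20.3% of all genes had one. Neighbouring genes shared regions, so these counts are not independent. On chromosome 14, a B6-enriched region (55590620 to 55591120) was counted for Psme1, Psme2 and the interferon regulator Irf9. A NOD-enriched region there (55603775 to 55604457) was counted for Psme2 and Irf9. B2m, the light chain of class I molecules, had a B6-enriched region 0.710 kb from its TSS with 18 tags in B6 and 4 in NOD, a fold of 6.92 (2.28 to 28.1). Canx, the chaperone calnexin, had a NOD-enriched region 1.46 kb from its TSS with 43 tags in NOD and 2 in B6, a fold of 13.98 (3.64 to 119). Of 9 interferon and class I regulators, 5 had a NOD-enriched and 3 a B6-enriched H3K4me3 region, beside the same shares of all genes. The largest NOD fold among these 9 with tags in both strains was at Nlrc5, the class I counterpart of Ciita. A region over an annotated Nlrc5 TSS (chromosome 8, 94472931 to 94474067) had 85 tags in NOD and 3 in B6, a fold of 18.4 (6.09 to 91.1). Nlrc5 also had a NOD-enriched H3K27ac region with a score of 38.6, 18.8 kb from the TSS used by the deposited annotation. A B6-enriched H3K4me3 region (94430357 to 94430857) had 17 tags in B6 and 2 in NOD. It lay 3.48 kb from a different Nlrc5 TSS than that under the NOD-enriched H3K4me3 region. Irf1, an interferon-induced transcription factor, had a NOD-enriched region 5.70 kb from its TSS with 138 tags in NOD and 16 in B6, a fold of 5.61 (3.33 to 10.1).

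Markers of cell type were counted by the same rule, since immune cells carry active marks at class II genes. Of 11 markers of antigen-presenting and other immune cells, 5 had a NOD-enriched H3K4me3 region (Cd79a, Itgam, Adgre1, Cd14 and Spi1), 2 a B6-enriched one (Lyz2 and Spi1) and 0 an H3K27ac region in either list. The closest NOD-enriched region of each of the 5 lay 1.99 to 16.8 kb from a TSS, so none covered one. A B6-enriched region (91096686 to 91097319 on chromosome 2) covered an annotated TSS of Spi1. This was a different TSS from that nearest to the NOD-enriched regions of Spi1. Ptprc, the pan-leukocyte gene CD45, and Cd79b, Ms4a1, Itgax and Csf1r had no region in any list. Of 8 markers of pluripotent cells, 7 had a NOD-enriched and 4 a B6-enriched H3K4me3 region, and 4 were named in the NOD and 2 in the B6 list of H3K27ac. Over all genes the shares were 29.3% and 20.3% for H3K4me3 and 11.6% and 10.7% for H3K27ac. Some of these regions covered a TSS, in both directions. At Zfp42 a NOD-enriched H3K4me3 region over a TSS had 1436 tags in NOD and 77 in B6, a fold of 12.1 (9.64 to 15.5). At Esrrb a B6-enriched one over a TSS had 28 tags in B6 and 9 in NOD, a fold of 4.79 for B6 (2.20 to 11.5). At Pou5f1 a region 0.869 kb from the TSS had 110 tags in NOD and 0 in B6. This region did not cover the TSS, and the study reports both marks at the Pou5f1 promoter as alike in the strains. The lists hold differences between the strains, so these counts do not measure how much of a cell type a culture held, and their part in the regions at H2-Eb1 was not tested.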

How the data were processed

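ChIP-Seq of H3K4me3 and H3K27ac was done on B6 and NOD ES cells, 1 library per strain and mark. Per the labels, reads were handled with CASAVA 1.8.2, STAR 2.2.0c and HOMER on mm9, whereas the study's methods give bowtie2 and mm10. Positions were treated as mm10 because 89.8% of 11505 H3K27ac rows had a TSS distance within 10 bp of GRCm38.p6 RefSeq and no region passed a chromosome end. The authors called H3K4me3 regions per strain with HOMER against the other strain, at a fold of at least 4 and a Poisson p-value of 1.00e-04, a peak size of 500 bp and a minimum distance of 1000 bp. The deposited counts are tags per region, and the deposited NOD signal was scaled to the B6 total, from which whole NOD tags were recovered (at most 0.0769 from a whole number). The deposited H3K27ac score was read as the own minus the other strain's signal and the column beside it as a slope, both inferred from the headers and the study's methods, and the regions were annotated with HOMER. The fold ratio and p-value columns deposited by the authors for H3K4me3 were not used.

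Tags were scaled to library totals and compared by the exact conditional Poisson interval in Python 3.11.15 with scipy 1.17.1, pandas 2.3.3 and numpy 2.4.6. Functions were tested on simulated data. All 10 genes were described, and other genes of the pathway and cell type markers were taken from fixed lists and named where they had a region. A marker of the lists is not reported here. The members and lists were chosen with earlier results of these data known. Alternatives were other windows, region centres, stricter folds or tags, other scaling, and, added later, curated transcripts. Intervals cover counting error only, and PCR copies are not independent molecules.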

Additional observations from a re-analysis of the deposited data

How the results depend on the processing

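With 1 library per strain and mark there is no spread between samples, and no library could be left out. No paired analysis was possible because no replicate exists. Of the recomputed values, 51 stayed within 1.5 times the main count or within the interval of the fold, and 5 moved further. The 4 NOD-enriched H3K4me3 regions became 1 at 8-fold or more and 2 at 20 or more normalised tags. The number of genes with one was 3 with a window of 5 kb or 1 kb, with the gene body alone or with either stricter limit, and 5 with a window of 50 kb, the main count being 4. These 3 were not always the same genes. With the narrower windows or the body alone they were H2-Eb1, H2-Eb2 and H2-Ea. With either stricter limit they were H2-Eb1, H2-Eb2 and H2-Aa, and H2-Eb2 and H2-Aa were then counted only through regions in H2-Eb1. Genes with a NOD-enriched H3K27ac region rose from 1 to 2 when position within 20 kb replaced the annotated name, as H2-Eb2 was then included. The fold over the 4 regions was 11.1 on unscaled tags and 7.34 when scaled by tags outside the listed regions, and the fold in the H2-Eb1 exon 2 region was 9.33 on unscaled tags. The counts of 0 in the B6 lists stayed 0 under all alternatives run, but they could not have changed. Most alternatives only narrow the rule. The widest windows were 50 kb for H3K4me3 and 20 kb for H3K27ac, with the nearest B6-enriched regions 138 kb and 190 kb away. These counts of 0 are among the 51 values that stayed, and they are no check of the result. Depth limits the H2-Eb2 region most, with 14 tags against 0.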
